A study of Mus musculus with 6 samples.

Results

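Gpihbp1, Plvap, Cd93, Kit and Sema3c are 5 genes that mark general capillary cells of the lung endothelium, and their DNA methylation was described window by window in lung endothelial cells of 2 ages. They were chosen by name, and their windows were all 1-kb windows that overlap the RefSeq span of each gene in the mouse build mm10 extended by 20 kb on either side. This rule took 371 of the 1684140 windows of the table: 39 for Gpihbp1, 54 for Plvap, 34 for Cd93, 116 for Kit and 128 for Sema3c. All 371 had a value in all 6 samples. Not among them were 4 of 43 possible windows for Gpihbp1, 1 of 55 for Plvap and 14 of 48 for Cd93. For Kit 7 of 123 and for Sema3c 69 of 197 were missing. The cells were lung endothelial cells of wild-type mice, isolated by flow sorting, with 3 samples titled mAdu and 3 titled Aged. The series names ages of 8 and 18 months without tying them to titles. The mAdu samples were taken as 8 months old and the Aged samples as 18 months old. No allele, transgene or treatment is named for either group, and separate animals are not stated, so p-values reflect the spread among these 6 samples alone, which may be technical.

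The alveolar capillary network of the lung holds general capillary cells, which serve as the progenitors of the capillary bed and control vessel tone and leukocyte traffic, and aerocytes, the thin cells specialised for gas exchange. Gpihbp1 anchors lipoprotein lipase on the capillary surface, Plvap forms the diaphragms of caveolae and fenestrae, Cd93 is a transmembrane glycoprotein that binds the matrix protein Mmrn2, Kit is the receptor tyrosine kinase for stem cell factor, and Sema3c is a secreted semaphorin that signals through neuropilins and plexins. Methylation of cytosines in CG pairs is high over most of the mammalian genome and low at CG-rich promoters and at many active regulatory elements, and the methylation of a gene is not a measure of its expression.

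The values are mean methylation levels per 1-kb window, obtained by whole-genome bisulfite sequencing of tagmented DNA, in which a transposase fragments a small amount of DNA and bisulfite then converts unmethylated cytosines. They are given as percent, and differences are in percentage points, Aged minus mAdu. The files hold neither coverage nor the number of CG sites, so the depth behind each value is unknown and no counting error could be attached. Some values are above 0 but smaller than a ratio of read counts could be, such as 4.53e-45% in a Cd93 window, so the values are not all plain read ratios. Whether they were smoothed or modelled is not stated in the sources used here, and the spread between samples may not be that of the reads. Means over all windows lay between 73.1% and 73.7% in the 6 samples. The sorted cells may hold several endothelial types, so a change in the share of a cell type and a change in methylation within its cells cannot be told apart. The gene table gives no strand or exons, so the edges of a gene are called its low-coordinate and high-coordinate ends. An end runs from 1000 bp outside to 500 bp inside the edge, a body from 500 bp inside each edge with at least 3 windows, and a flank from 1000 bp to 20 kb outside. The value of each is the unweighted mean of the windows overlapping it, and neighbouring windows are not independent.

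The start of a gene was known for 2 of the 5 members, through RefSeq promoter sequences of build GRCm38.p6, which shares its coordinates with mm10. Both start at their low-coordinate end on the plus strand. The 250 bases before each start are printed because they lie inside the least methylated stretch of their locus at a threshold of 20%. In Kit the lowest windows of that stretch lie beyond the printed bases, inside the gene. Each CG, the site that can carry methylation, is in capitals.
Kit (chr5:75574737-75574986, + strand): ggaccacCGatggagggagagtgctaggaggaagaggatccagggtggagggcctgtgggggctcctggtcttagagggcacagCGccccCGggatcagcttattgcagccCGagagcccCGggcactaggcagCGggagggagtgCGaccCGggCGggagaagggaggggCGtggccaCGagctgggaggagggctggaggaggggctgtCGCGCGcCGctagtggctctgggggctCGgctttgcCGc
Sema3c (chr5:17574566-17574815, + strand): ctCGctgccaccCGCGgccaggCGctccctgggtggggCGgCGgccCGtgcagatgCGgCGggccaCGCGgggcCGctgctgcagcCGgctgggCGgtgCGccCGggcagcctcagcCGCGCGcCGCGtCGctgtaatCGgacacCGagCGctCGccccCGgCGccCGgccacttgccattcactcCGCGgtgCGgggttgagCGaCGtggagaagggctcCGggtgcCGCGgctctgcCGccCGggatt
The Kit sequence holds 17 CG sites at a GC content of 70.8%, and 76.5% of 32851 RefSeq promoter windows of this length hold fewer. The Sema3c sequence holds 39 CG sites at 78.4% GC, with fewer in 98.4% of promoters. The median promoter holds 6 CG sites at 52.4% GC. Both promoters are CG-rich, that of Sema3c more so. Of 5 motifs searched on both strands, the GC box GGGCGG matched 1 time in Kit and 3 times in Sema3c, and it is in 32.7% of all promoters. The core CACCC matched 1 and 3 times (52.0% of promoters) and the core GGAA 1 time in Kit and not in Sema3c (93.4%), while GATAA (22.6%) and TATAAA (12.4%) matched in neither. A match is a run of letters and not a shown binding site.

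Each of the 5 loci held windows of low methylation. Across the loci 39 of 371 windows (10.5%) had a mean under 20%, against 2.89% of all windows, and 111 (29.9%) were under 50%, against 9.54%. The whole table includes windows far from any gene, and these shares are a description without a test. The share under 20% was 25.9% for Plvap, 17.9% for Gpihbp1, 14.7% for Cd93, 6.90% for Kit and 3.91% for Sema3c, the longest gene. These shares include the flanks, which in some loci hold neighbouring genes. Over windows of the gene alone they were 66.7% of 3 for Gpihbp1, 62.5% of 8 for Cd93 and 35.7% of 14 for Plvap. For Kit the share was 9.88% of 81 and for Sema3c 4.81% of 104. The plot of windows across the loci shows the shape of each.

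**Figure D1:**
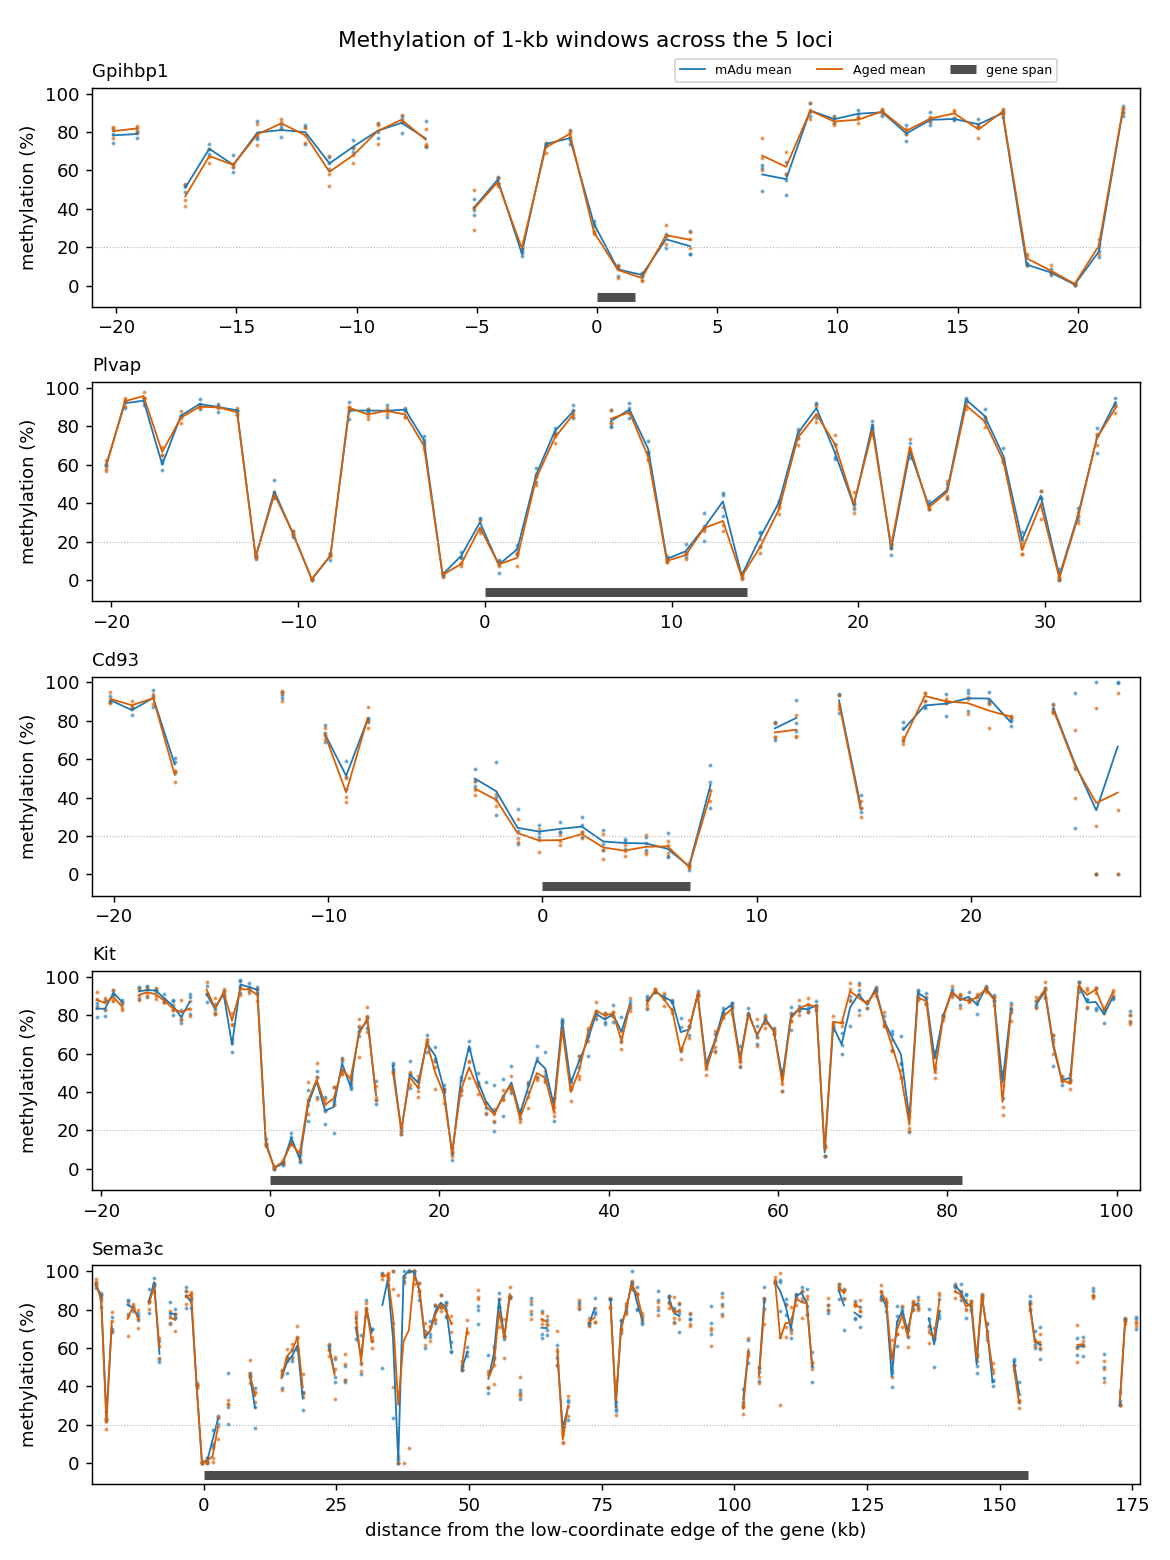
Methylation (%) of each 1-kb window against its distance in kb from the low-coordinate edge of the gene, for the 5 loci; points are the 6 samples, lines the means of 3 mAdu and 3 Aged samples, broken where a window has no row, and the dark bar is the gene. Cd93 lies wholly in a basin of windows under 50%, Kit and Sema3c dip to near 0 at their start, and single windows of Cd93 (far right) and Sema3c (near 37 kb) scatter across nearly the whole scale.

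Gpihbp1 (chr15:75596630-75598213, gene ID 68453) is 1584 bp long and fits in 3 windows. The window on its high-coordinate edge, chr15:75598001-75599000, was at 5.10%, 6.66% and 5.09% in mAdu, against 3.21%, 2.43% and 6.36% in Aged. The middle window was at 10.995%, 9.32% and 5.20% against 10.4%, 4.21% and 9.95%. In both windows the groups overlapped. The window on the low-coordinate edge, chr15:75596001-75597000, was at 33.8%, 32.1% and 30.9% in mAdu, against 28.6%, 27.2% and 28.2% in Aged. Here every Aged sample was lower than every mAdu sample, with a difference of -4.31 points (95% interval -8.47 to -0.142), and limma's adjusted p over all windows was 0.978. Over the whole gene the mean was 14.4%. A separate low stretch of 4 windows in the high flank, at a mean of 9.99%, lies across the low-coordinate end of the neighbouring zinc finger gene Zfp41, 16987 bp from Gpihbp1.

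Plvap (chr8:71497753-71511806, gene ID 84094) had low windows at both ends and a methylated middle. At the high-coordinate edge, chr8:71511001-71512000 was at 2.79%, 3.48% and 0.926% in mAdu and 0.509%, 1.46% and 3.19% in Aged. A further low stretch of 2 windows inside the gene, chr8:71507001-71509000, averaged 12.2%, and the highest window of the gene, chr8:71505001-71506000, averaged 88.1%. The low-coordinate end is shared: Gtpbp3, a tRNA modification gene, overlaps Plvap by 1872 bp, so low methylation there cannot be assigned to either gene. That end was at 17.7%, 16.9% and 16.2% in mAdu, against 15.4%, 14.3% and 14.2% in Aged. The groups did not overlap, and the difference was -2.28 points (95% interval -3.95 to -0.611, limma's adjusted p = 0.975). Gm46041 lies wholly inside Plvap, over 2861 bp of its methylated middle, with ends at 81.5% and 77.1%. The Plvap body includes Gm46041 and part of the Gtpbp3 overlap. With Ano8, Ccdc194 and the pseudogene Gm7850 also within reach, other genes account for part of this locus, of whose 54 windows 25 were under 50%.

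Cd93 (chr2:148436651-148443535, gene ID 17064) was low along its whole length. All 8 windows of the gene were under 50% and 5 were under 20%. They belong to a run of 12 windows under 50%, chr2:148433001-148445000, that averaged 23.5% and reaches 3.65 kb beyond the low-coordinate edge. The least methylated window, at the high-coordinate edge (chr2:148443001-148444000), was at 4.89%, 5.81% and 2.16% in mAdu, against 3.33%, 4.27% and 4.27% in Aged. The Cd93 body was at 19.4%, 17.2% and 13.0% in mAdu, against 13.8%, 11.8% and 16.5% in Aged. The groups overlapped, and the range within each was wider than the difference between their means. No other gene of the table lies within 20 kb. In 2 windows at the far edge of the high flank the samples ranged from near 0% to 100%. Extreme values, within 0.01 points of 0% or 100% in at least 1 sample, occurred in 6 of the 371 member windows, against 1.72% of all windows.

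Kit (chr5:75574987-75656722, gene ID 16590) combined a start of little methylation with a low front part. The window holding the printed promoter, chr5:75574001-75575000, was at 15.4%, 13.1% and 12.2% in mAdu, against 13.3%, 11.96% and 12.3% in Aged. The next window, the first wholly inside the gene, stayed between 0.0669% and 1.18% in all samples. Upstream, the window that ends just before them averaged 91.9%, so the border of the low stretch is sharp. This methylated window is part of the low-coordinate end as defined and raises its mean to 35.1%. The low stretch under 20% ran for 5 windows (chr5:75574001-75579000, mean 7.56%). Along the gene, means per 10 kb were 27.0%, 52.4%, 36.5% and 57.4% in the first 40 kb and then 80.8%, 73.1%, 71.0% and 71.2% up to 80 kb. Within this body 3 single windows stood under 20%, at 15.01, 21.01 and 65.01 kb from the start, with means of 19.95%, 7.88% and 9.09%. The window at 21.01 kb was at 10.7%, 4.47% and 7.88% in mAdu, against 8.73%, 6.69% and 8.76% in Aged. The groups overlapped there and in the dip at 65.01 kb. The high-coordinate end of Kit was at 88.4%.

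Sema3c (chr5:17574816-17730268, gene ID 20348), at 155453 bp the longest of the 5, was lowest at its start. The window of the printed promoter, chr5:17574001-17575000, was at 0.0765%, 0.260% and 1.08% in mAdu, against 0.139%, 0.191% and 0.679% in Aged. With the next 2 windows it formed a stretch of 3 kb at a mean of 3.17%. The window just upstream, with a mean between 30% and 50%, is part of the low-coordinate end as defined. It raises the mean of that end to 14.0%. In the third window of the stretch, chr5:17576001-17577000, the mAdu samples were at 17.2%, 9.07% and 9.92% and the Aged samples at 0.746%, 2.56% and 7.79%. This window was picked after its values were seen; the groups did not overlap, the difference was -8.36 points (95% interval -14.6 to -2.13), and limma's adjusted p over all windows was 0.978. Means per 10 kb were 23.3%, 51.1% and 56.2% in the first 30 kb, and the Sema3c body averaged 67.3%. A single window 67.2 kb into the gene (chr5:17642001-17643000) was at 19.2%, 18.6% and 17.2% in mAdu, against 10.9%, 15.3% and 10.6% in Aged. All Aged samples were lower there, by 6.05 points on average, and this too did not pass. For this locus 69 of 197 possible windows have no row and were not analysed here, and 4 windows near 37 kb had a value near 0% or 100% in at least 1 sample.

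Set beside all autosomal genes, the members were low at an end, and some were low over the gene as a whole. Ranked by the end with less methylation, 11.2% of 45661 genes were lower than Plvap (10.99%), 12.4% lower than Gpihbp1 (12.8%), 13.2% lower than Sema3c (14.0%), 17.8% lower than Cd93 (21.2%) and 30.1% lower than Kit (35.1%). Among protein-coding genes these shares were 18.4%, 20.6%, 22.0%, 29.7% and 51.2%, so by this end Kit was at the middle of coding genes. The samples of Plvap, Gpihbp1 and Sema3c overlapped, so the order of these 3 is within their spread. The median of the 5 members was 14.0%, against 59.1% for all genes and 34.4% for coding genes. Over gene bodies the order was another: Cd93 at 15.3% lay below all but 0.996% of 28922 bodies, Plvap at 43.5% below all but 4.32%, Kit at 59.3% below all but 13.0% and Sema3c at 67.3% below all but 27.3%. The SD over samples was at most 3.27 points in these bodies, and the samples of neighbours in that order did not overlap. Gpihbp1 is too short to have a body by the rule; over its whole span, a measure added after the data were seen, 2.54% of 44640 genes were lower. From low to high, the bodies followed gene length: 6885 bp for Cd93, 14054 bp for Plvap, 81736 bp for Kit and 155453 bp for Sema3c. Windows at the ends make up more of a short gene, and genes of all lengths were ranked together. The 3 windows of the Gpihbp1 span all belong to its ends as well. The part of gene length was not tested. These positions are descriptions without a test.

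**Figure D2:**
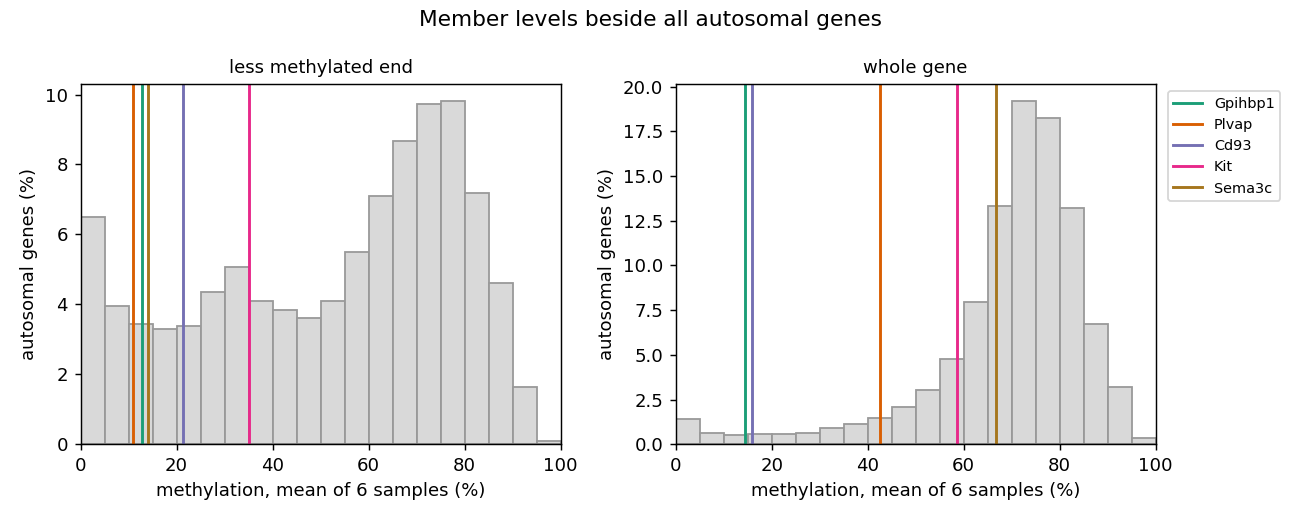
Share of autosomal genes (%) by methylation (%, mean of 6 samples, bins of 5 points) at the less methylated end (left) and over the whole gene (right), with a line for each member. At the ends Plvap, Gpihbp1 and Sema3c lie between 10.99% and 14.0%; over whole genes Gpihbp1 (14.4%) and Cd93 (15.9%) stand in the sparse low tail and Sema3c (66.8%) near the bulk.

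The design compares 8 with 18 months, and in none of the 5 loci did a window, end, body or flank pass the test between these ages. The test was limma over every window, end, body or flank of the genome, at an adjusted p under 0.05. Of the 371 member windows 0 were called, where 0.0211% of all windows were, so a call among so few windows would have been rare. Of 10 member ends 0 were called (0.0147% of all ends), of 4 bodies 0 (0.00346%), of 10 flanks 0 (0.00752%) and of 5 whole spans 0 (0.0112%). The smallest adjusted p was 0.978 among windows, 0.975 among ends, 0.976 among bodies and 0.982 among flanks. At an unadjusted limma p under 0.05 there were 15 member windows, or 4.04% of 371, against 4.67% of all windows. There were 1 of 10 member ends (4.95% of all ends), 0 of 4 bodies (5.08%) and 0 of 10 flanks (4.61%). No other tool was run. The groups did not overlap in 31 member windows (8.36%), against 10% of all windows. They did not overlap in 1 of 10 ends (10.1% of all ends), 0 of 4 bodies (10.1%), 1 of 10 flanks (9.88%) and 0 of 5 whole spans (10.2%).

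**Figure D3:**
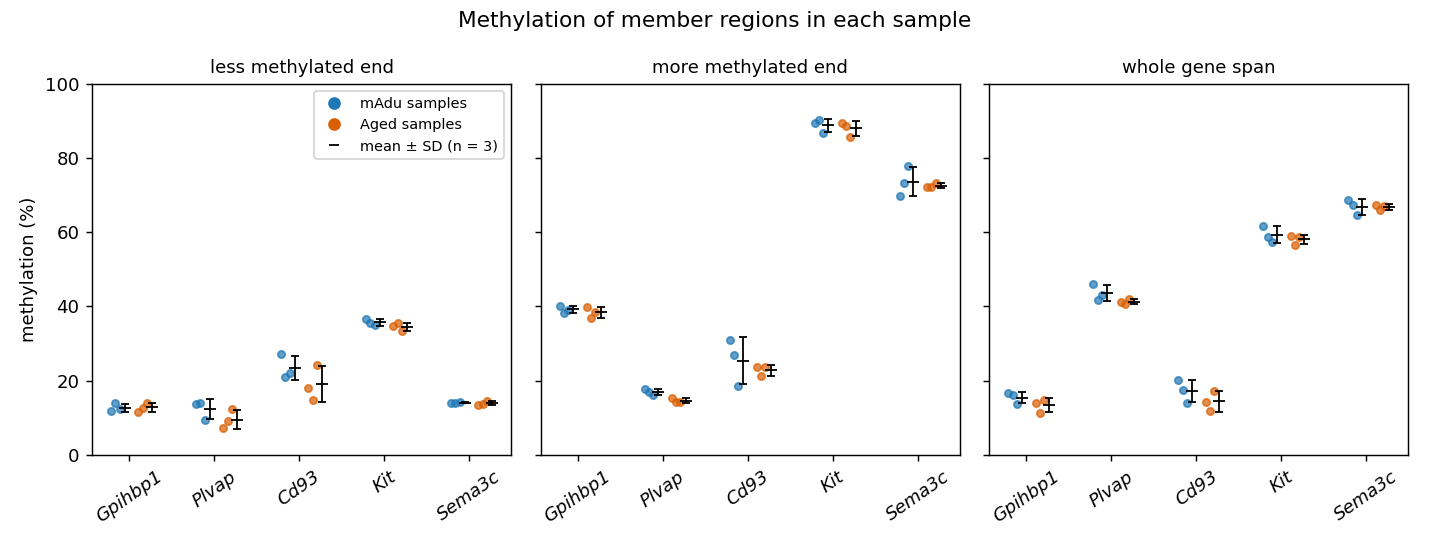
Methylation (%) of the less methylated end, the more methylated end and the whole span of each member; points are single samples, bars the mean ± SD of 3 samples a group. Samples of the groups overlap in every pair drawn except the more methylated end of Plvap, where the 3 Aged samples (14.2% to 15.4%) lie under the 3 mAdu samples (16.2% to 17.7%).

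At the less methylated ends the 95% interval of each difference held 0. The Gpihbp1 end was at 12.8% ± 1.07 (SD, n = 3) in mAdu and 12.8% ± 1.17 in Aged. The Sema3c low-coordinate end, with its more methylated upstream window, was at 14.1% ± 0.130 and 14.0% ± 0.615. For Sema3c the 95% interval of the difference ran from -1.46 to 1.30 points. The Kit start was at 35.7% ± 0.894 and 34.5% ± 1.07, with an interval from -3.88 to 1.51. The Plvap high-coordinate end was at 12.4% ± 2.68 and 9.57% ± 2.59 (interval -6.99 to 1.33), and the Cd93 low-coordinate end at 23.4% ± 3.29 and 19.03% ± 4.86 (interval -10.9 to 2.09). With each sample left out in turn, the difference ranged from -4.38 (without the third mAdu sample) to -1.63 points (without the first Aged sample) at the Plvap end. At the Cd93 end it ranged from -7.03 (without the third Aged sample) to -2.24 (without the second), and at the Kit start from -1.62 (without the second Aged sample) to -0.588 (without the third). Counted over the 5 less methylated ends, the Aged mean was under the mAdu mean in 4, with a median difference of -1.18 points. Over all genes the median was -0.00147 points and 50.5% of all ends were lower in Aged. Differences of several points at Cd93 and Plvap thus remain within these intervals.

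All 4 measured bodies had the lower mean in Aged, where 52.6% of all bodies did. The Plvap body averaged 44.7% ± 2.34 in mAdu samples and 42.4% ± 0.678 in Aged, a difference of -2.29 points (95% interval -5.42 to 0.840). For Cd93 it was 16.6% ± 3.27 and 14.0% ± 2.34 (difference -2.53, interval -7.27 to 2.22), and for Kit 59.9% ± 2.19 and 58.6% ± 1.31 (difference -1.30, interval -4.52 to 1.91). The Sema3c body was at 67.3% ± 2.14 and 67.2% ± 0.768, a difference of -0.0214. Each of these intervals holds 0. The whole span of Gpihbp1 was at 15.5% ± 1.53 and 13.4% ± 1.87 (difference -2.09, interval -5.22 to 1.05). Its samples overlapped as well, at 16.6%, 16.03% and 13.7% against 14.1%, 11.3% and 14.8%.

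Leaving out the first mAdu sample moved the direction counts of the 371 windows most. The first mAdu sample had the highest mean over the gene in all 5 members, at 16.6% for Gpihbp1, 46.1% for Plvap, 20.2% for Cd93, 61.8% for Kit and 68.5% for Sema3c. The second Aged sample had the lowest in 4, while in Sema3c the third mAdu sample was lowest, at 64.5%. Without the first mAdu sample the differences of the bodies came to -1.04 points for Plvap, -1.09 for Cd93, -0.0953 for Kit and 0.893 for Sema3c. Without the third mAdu sample they were -2.47, -4.31, -2.24 and -1.20. Of the 371 windows, 222 (59.8%) had a lower mean in Aged, against 51.1% of all windows. Without the first mAdu sample it was 198 (53.4%), against 50.4%, and without the second Aged sample 209 (56.3%), against 49.5%. Without the third mAdu sample it was 240 (64.7%), against 52.1%, and without any 1 of the other 3 samples it lay between 221 and 224. By locus the counts were 40 of 54 for Plvap, 26 of 34 for Cd93, 71 of 116 for Kit, 66 of 128 for Sema3c and 19 of 39 for Gpihbp1. Without the first mAdu sample Plvap was still at 37 and Cd93 at 22, while Kit was at 63, Sema3c at 60 and Gpihbp1 at 16.

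**Figure D4:**
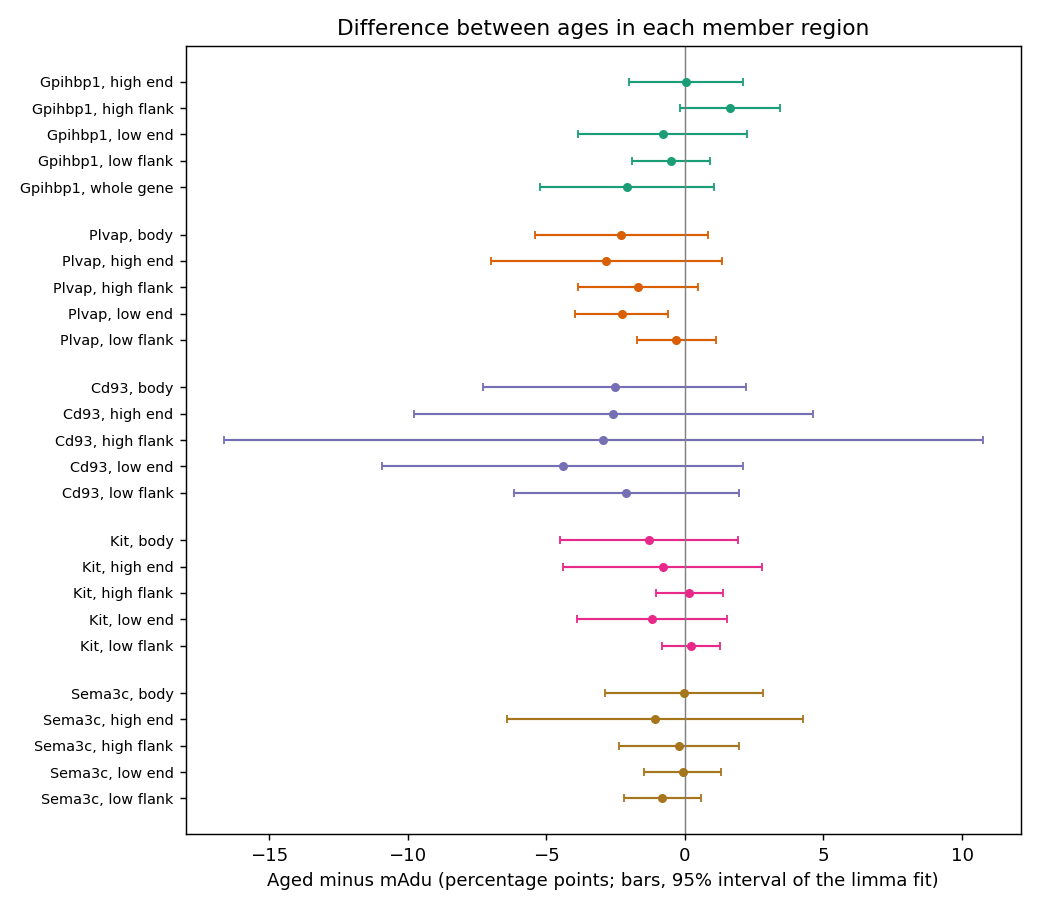
Difference between ages (Aged minus mAdu, percentage points) in each end, body and flank of the members, with the whole gene for Gpihbp1, which has no body; points are the limma estimates and bars their 95% intervals. All intervals cross 0 except that of the Plvap low-coordinate end (-3.95 to -0.611), which did not pass after adjustment, and the widest belongs to the Cd93 high flank.

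The flanks of the genes were mostly methylated and held no called difference. Those of Kit averaged 87.7% and 78.9%, and those of Plvap, with its neighbours, 59.8% and 53.9%. In the Plvap high flank the groups did not overlap: 54.5%, 55.4% and 54.4% in mAdu against 51.5%, 53.8% and 54.0% in Aged, a difference of -1.70 points (interval -3.85 to 0.462). The Gpihbp1 high flank was higher in Aged by 1.62 points (interval -0.175 to 3.42). For the Cd93 high flank, with its 2 scattered windows, the interval spans -16.6 to 10.7 points.

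By the rule for named windows, the window with the smallest p in each direction is given for each locus; none passed, and the adjusted p of each was 0.978. In Kit, chr5:75570001-75571000, about 4.5 kb upstream of the start, was at 65.7%, 60.7% and 67.7% in mAdu, against 81.3%, 74.7% and 75.4% in Aged, a difference of 12.4 points (95% interval 4.80 to 20.1). The lower one, chr5:75598001-75599000 inside Kit, was at 66.5%, 62.0% and 63.1% against 55.9%, 47.1% and 55.4% (difference -11.1). The latter lies just beyond the dip at 21.01 kb. In Sema3c, chr5:17624001-17625000 was at 55.6%, 60.6% and 57.7% against 74.3%, 68.0% and 68.5% (difference 12.3), and the lower one was the dip at 67.2 kb. In Plvap, chr8:71496001-71497000, inside Gtpbp3, was at 11.5%, 14.5% and 11.95% against 7.54%, 9.01% and 8.65% (difference -4.25), and chr8:71480001-71481000 differed by 6.52 points. The Cd93 windows were chr2:148437001-148438000 inside the gene (difference -5.87) and chr2:148454001-148455000 in the high flank (4.93). For Gpihbp1 they were the window on its low-coordinate edge, given above, and chr15:75593001-75594000 (2.69). In each of these 10 windows the groups did not overlap, which the choice by smallest p favours.

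Genes that act with the members also held no called difference. Of 13 partners, among them Lpl (the lipase that Gpihbp1 carries), Mmrn2 (the ligand of Cd93), Kitl (stem cell factor, the ligand of Kit) and Nrp1, Nrp2 and Plxnd1 (semaphorin receptors), 0 ends and 0 bodies passed limma. At an unadjusted limma p under 0.05 there were 0 ends and 2 bodies of the 13, where 2301 of 45661 less methylated ends and 1469 of 28922 bodies of all genes were. By direction 8 ends were lower and 5 higher in Aged, and 7 bodies were lower and 6 higher, with median differences of -0.0666 and -0.111 points. The partners with the smallest p were the Kitl body, with 52.1% ± 1.48 at 8 months and 55.4% ± 1.34 at 18 months (adjusted p = 0.935), the Lpl body at 73.9% ± 1.13 and 72.1% ± 0.563 (adjusted p = 0.975), and the Nrp2 low-coordinate end at 8.79% ± 0.787 and 10.2% ± 0.596 (adjusted p = 0.975). The low-coordinate end of Nrp1, a coreceptor for semaphorins, was nearly unmethylated at 0.577%, while that of Lpl was at 33.2%. The Cav1 and Cavin1 bodies, genes of the caveolae that Plvap closes, were at 29.9% and 15.5%.

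Of 7 other general capillary genes 0 ends and 0 bodies passed, with 5 ends lower and 2 higher in Aged and 4 bodies lower and 3 higher. At an unadjusted limma p under 0.05 there were 1 end and 2 bodies, where 2301 of 45661 less methylated ends and 1469 of 28922 bodies of all genes were. Aplnr, the apelin receptor, had the smallest p at both: its low-coordinate end averaged 22.8% ± 3.24 at 8 months and 11.9% ± 0.487 at 18 months (adjusted p = 0.787) and its body 19.7% ± 3.07 and 11.6% ± 2.28 (adjusted p = 0.921). This end rests on 1 window and the body on 3. Without the third mAdu sample the end passed, with a difference of -12.7 points and adjusted p = 0.0281, and in the other alternatives it did not. The Scn7a body, a sodium channel gene, was at 64.5% ± 0.378 and 66.6% ± 0.651 (adjusted p = 0.935), in the other direction.

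For comparison, 7 aerocyte genes were taken, and 0 of 7 ends and 0 of 6 measured bodies passed. At an unadjusted limma p under 0.05 were 1 end and 2 bodies, where 2301 of 45661 less methylated ends and 1469 of 28922 bodies of all genes were. The Aged mean was the higher in all 6 bodies, by a median of 2.36 points, beside 4 of 4 lower and a median of -1.80 points for the members. Of these 4, the Sema3c body differed by -0.0214 points and changed sign in 5 of 13 alternatives. The 7 other general capillary genes had 4 bodies lower and 3 higher, with a median of -0.488 points. Among the aerocyte bodies the smallest p belonged to Ednrb, the endothelin receptor B gene, with a difference of 4.12 points (limma, adjusted p = 0.935). Among the aerocyte ends it belonged to Chst1, a sulfotransferase gene, with 2.89 points (adjusted p = 0.975). The difference between the lists was not tested. Over the general capillary members the mean body was at 49.5%, 46.7% and 45.1% in mAdu, against 45.8%, 44.3% and 46.6% in Aged. For the aerocyte genes it was 54.9%, 56.8% and 58.2% in mAdu and 58.6%, 60.7% and 58.3% in Aged. The first mAdu sample was thus the highest for the members and the lowest for the aerocyte genes, and the second Aged sample the reverse. Bodies of 7 endothelial markers averaged between 48.0% and 49.7%. The part of either sample or of the mix of cell types in these values was not tested.

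**Figure D5:**
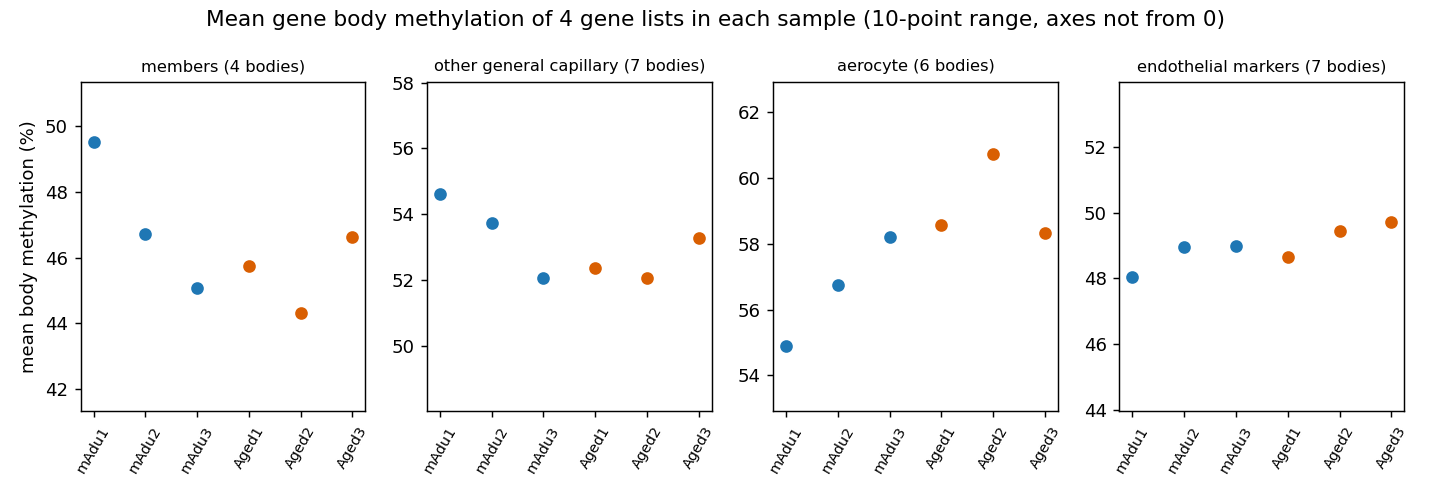
Mean gene body methylation (%) of 4 gene lists in each sample, mAdu samples 1 to 3 and Aged samples 1 to 3; each panel spans 10 percentage points and does not start at 0. The members range from 44.3% to 49.5%, the aerocyte genes from 54.9% to 60.7%, with the first mAdu sample highest in the one and lowest in the other, and the endothelial markers within 48.0% to 49.7%.

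Likeness to each member was measured as the root mean square difference over 24 values (less methylated end, more methylated end, body and mean flank, each in 6 samples) among 27227 genes that have all of them. The profiles closest to Plvap, low at both ends with a body at 43.5%, were those of Ino80b (3.55 points), Slc17a7 (3.67) and Clic1 (3.75), where the median gene differed by 40.9 points. For Cd93 they were Crip2 (5.33), Vgf (6.05) and Aplnr (6.27), against a median of 43.4. Kit was most like Irf7 (2.22), Plxna4os1 (2.62) and Nme2 (2.86), and Sema3c most like Tmem266 (1.83), Oaf (2.12) and Gm51935 (2.28), against medians of 18.5 and 19.2. Gpihbp1, without a body, was not compared.

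The label of the cells was checked against methylation of marker genes, which cannot show expression. Bodies of 7 endothelial markers had a median of 45.3%. The medians were 62.5% for mesenchymal, 70.3% for epithelial and 70.5% for haematopoietic marker bodies. The less methylated ends had medians of 18.0% for endothelial, 22.3% for mesenchymal, 24.7% for epithelial and 62.8% for haematopoietic markers. Within the endothelial list bodies ran from 6.001% (Egfl7) to 78.0% (Emcn), and the epithelial factor Nkx2-1 was at 1.89%, so single genes do not follow their list. None of the markers differed between the ages by the test, with a smallest adjusted p of 0.944 among bodies and 0.975 among ends.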

How the data were processed

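DNA methylation of lung endothelial cells was compared between 3 mAdu (8 months) and 3 Aged (18 months) samples. Per the labels' protocols, 30 ng of DNA per sample went into 3 libraries, read as 100 bp pairs. BWA 0.7.8 and mm10 were used, per the submitters' processing notes; the methylation caller, coverage filters and any smoothing were not given in the sources used here. Deposited values are the authors' mean methylation per window as a fraction, without coverage, here multiplied by 100. Kept were the 1683697 of 1684140 windows that all 6 samples cover; 100 to 443 windows per sample had none.

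Genes came from the RefSeq table of GRCm38.p6 (47042 on the 19 autosomes; all 5 members matched), and promoter sequences from RefSeq matched 2 of 5 members. Windows, ends, bodies and flanks were fitted over the whole genome with limma 3.58.1 in R 4.3.3 (group as the only term, variance trend), with Benjamini-Hochberg adjustment at 0.05, and the fit was tested on simulated data. Adjusted p-values and intervals are limma's. Any permutation of 3 against 3 samples cannot give p below 0.1, so none was used.

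The members and lists were chosen with earlier results of these data known. The named-gene rule took all members in every region, called windows, the window with the smallest p in each direction per locus, up to 3 genes with the smallest p of each of 3 lists, and the 3 genes most like each member. Other genes were named after their values were seen. Extreme means within 0.01 points of 0% or 100% in at least 1 sample. Alternatives were a logit scale, no variance trend, samples shifted to 1 mean, a replicate block, each sample left out, other widths and no extreme windows.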

Additional observations from a re-analysis of the deposited data

How the results depend on the processing

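No member window, end, body or flank passed under any alternative, the replicate block included (0 calls in each of the 4 kinds of feature). Same-numbered samples did not deviate together over single windows (correlations of -0.0116, -0.0167 and -0.000645). Noise of single windows could hide a small shared part, so whether the numbers pair samples cannot be told from these values. With the replicate block 185 windows, 5 ends, 1 body and 4 flanks were called in the whole table. Without it the counts were 355, 13, 1 and 7. Other alternatives also moved these counts over the whole table, to between 59 (no extreme windows) and 998 (without the first Aged sample) for windows, 1 and 41 for ends, 0 and 9 for bodies and 0 and 27 for flanks. Of 664 recomputed values for 53 differences, 637 kept their direction and side of the threshold, 26 in 11 differences changed sign, and 1 passed. With each sample left out in turn, the Gpihbp1 high-coordinate end ranged from -0.534 to 0.662 points, the Cd93 high-coordinate end from -6.07 to 0.138, the Sema3c low-coordinate end from -0.421 to 0.170, its high-coordinate end from -2.95 to 0.982, its body from -1.20 to 0.893 and its high flank from -0.930 to 0.489. The Kit high-coordinate end ranged from -1.82 to 0.325, its low flank from -0.0471 to 0.498 and its high flank from -0.0828 to 0.394, and the Cd93 high flank from -7.78 to 1.53. The Aplnr end, from -12.7 to -9.89, passed without the third mAdu sample alone. Ends of 500 bp outside to 250 bp inside gave -0.978 for the Gpihbp1 high-coordinate end; ends of 2000 bp outside to 1000 bp inside gave 0.972 for the Sema3c low-coordinate, 0.478 for the Kit high-coordinate and -0.245 for the Nrp2 low-coordinate end. Shifting the samples to 1 mean gave 0.0366 for the Sema3c low-coordinate end and 0.0923 for its body, which came to 0.540 without extreme windows. Flanks of 10 kb gave 0.746 for the Sema3c and -1.15 for the Kit high flank. A threshold of 10% left 18 low windows in the loci and 30% gave 54, against 39 at 20%. Among protein-coding genes only, an alternative chosen after seeing the data, the median member end had 22.0% of genes below it, against 13.2%. The Plvap low flank had no value without windows at other coding genes. The unknown coverage limits all of these values.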

Other observations

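Along Kit the direction of the difference between ages was not the same throughout. In the first 10 kb from its start 2 of 10 windows had the lower mean in Aged, from 20 to 30 kb 8 of 10, from 50 to 60 kb 9 of 10 and from 70 to 80 kb 9 of 10. The bin means were 26.4% in mAdu and 27.6% in Aged in the first 10 kb, and 38.0% and 35.1% from 20 to 30 kb, with samples at 42.8%, 37.2% and 34.0% against 37.1%, 32.7% and 35.6%. From 70 to 80 kb they were 75.5%, 73.0% and 70.0% against 68.5%, 68.5% and 71.6%. The samples overlapped in each of these bins. They did not overlap from 30 to 40 kb, at 61.4%, 58.1% and 56.84% in mAdu against 56.80%, 55.8% and 55.7% in Aged. Nor did they from 40 to 50 kb, at 82.6%, 82.8% and 80.4% against 80.2%, 78.7% and 79.9%. From 60 to 70 kb 4 of 10 windows had the lower mean in Aged. Among single windows of Kit the groups did not overlap in 10 of 81 (12.3%), against 10% of all windows. No such share was computed for 10-kb bins over all genes. All bins were looked at after the data were seen, and none was tested.

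In Sema3c differences ran both ways along the gene. A group of 3 windows within 6 kb of each other showed higher values in every Aged sample than in every mAdu sample: chr5:17621001-17622000 by 12.9 points, chr5:17624001-17625000 by 12.3 and chr5:17626001-17627000 by 9.38. The groups did not overlap in 6 of 104 windows of the gene (5.77%), against 10% of all windows. In the bins that hold the group, 4 of 9 windows (40 to 50 kb) and 3 of 7 (50 to 60 kb) had the lower mean in Aged. All 6 windows of the gene from 120 to 130 kb had the higher mean in Aged, at 75.8%, 76.1% and 73.3% in mAdu against 79.1%, 78.7% and 81.9% in Aged. From 100 to 110 kb, 5 of 7 windows had the lower mean in Aged, with a bin difference of -6.06 points, the largest of the gene: 72.1%, 68.3% and 69.4% in mAdu against 64.4%, 68.96% and 58.3% in Aged, which overlap. All 3 windows from 90 to 100 kb and all 3 from 150 to 160 kb had the lower mean in Aged; the latter were at 56.7%, 59.2% and 57.4% against 53.1%, 55.7% and 54.8%, without overlap. None of these windows passed limma after adjustment, and all of these stretches were picked after their values were seen.

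Member windows were also split by level, and the class with the highest share was picked after its values were seen. Across member windows with a mean from 20% to 50%, the Aged mean was lower in 48 of 72 (66.7%), against 50.5% of such windows in the whole table, with a median difference of -1.38 points against -0.0347. The other classes had 56.4% (under 20%), 61.0% (50% to 80%) and 56.3% (80% and above), against 48.3%, 51.4% and 51.1% in the whole table. Counts by class were not repeated with samples left out. In the class from 20% to 50% the counts were 9 of 10 in Cd93, 9 of 11 in Plvap, 17 of 25 in Kit, 3 of 5 in Gpihbp1 and 10 of 21 in Sema3c, whose median difference was 0.628 points. The pooled SD of the 72 windows had a median of 5.10 points, against 3.90 in windows of this class in the whole table and 2.02 in member windows under 20%.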
